A study of Mus musculus with 8 samples.

Results

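The mechanistic target of rapamycin complex 1 (mTORC1) and the genes that restrain it were followed through matched RNA-seq and ribosome profiling of epididymal white adipose tissue (eWAT). The genes were chosen by symbol, and all 10 of the 10 named (Mtor, Rptor, Deptor, Rheb, Tsc1, Tsc2, Ddit4, Sesn1, Sesn3 and Rps6kb1) were among the 8562 genes of the deposited table, which lists only genes above 1 RPKM in each of its 8 libraries. They were picked with earlier results of the comparison between genotypes known, so their differences between genotypes are given as a description and not as a test. Their ribosome loading within a genotype does not use that comparison and was tested. It comes from the same libraries, so for Ddit4 above all it is not independent of the choice.

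HuR-FKO mice (AdipoQ-Cre;HuRf/f) lack HuR, the RNA-binding protein encoded by Elavl1, in adipocytes, where the adiponectin promoter drives Cre. Ctrl mice were HuRf/f littermates without Cre, and both carried the floxed allele in a line that had been backcrossed with C57BL/6. All were male and 6 weeks old. eWAT of 3 mice made 1 pool, there were 2 pools per genotype, and each pool was divided into a share for RNA-seq (mRNA) and a share for ribosome-protected fragments (RPF, the stretches of mRNA covered by ribosomes). The matched libraries address whether loss of HuR alters ribosome loading beside mRNA level. Vascular, stromal and immune cells of the tissue keep HuR in this model.

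Reads recovered from the RPKM values gave 5223721 and 5967917 coding reads in the HuR-FKO mRNA libraries and 5456731 and 8060054 in the Ctrl mRNA libraries. The RPF libraries were shallower, with 1311977 and 531966 coding reads in HuR-FKO and 1153205 and 723940 in Ctrl. The targeted gene did not separate the genotypes at the level of whole-tissue mRNA. Elavl1 stood at 41.6 and 43.3 RPKM in HuR-FKO mRNA, against 40.8 and 49.8 RPKM in Ctrl mRNA, and at 56.0 and 63.3 RPKM in HuR-FKO RPF, against 64.6 and 81.8 RPKM in Ctrl RPF. The deposited value covers the whole coding sequence and all cells of the tissue, so it does not check the deletion in adipocytes. All 10 adipocyte markers were listed, led by Fabp4 and Cfd, and none of 6 epididymis markers was. Of the macrophage markers 11 of 12 were listed, and 5 of these were higher in HuR-FKO mRNA, where 7.50% of all genes were. Of the red blood cell markers 5 of 6 were listed, and 4 of these were lower in HuR-FKO mRNA, with a summed level of 3286 to 5496 RPKM in HuR-FKO and 7656 to 11254 RPKM in Ctrl.

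mTORC1 is a kinase complex at the lysosome that couples nutrient and growth factor supply to protein and lipid synthesis. Mtor encodes its catalytic subunit, Rptor the scaffold that brings in substrates, and Deptor a subunit that inhibits the kinase. The small GTPase Rheb activates the complex, and Tsc1 with Tsc2 shuts Rheb off. Ddit4 (also called Redd1) is a stress-induced protein that acts through the TSC complex to restrain mTORC1, while sestrins such as Sesn1 and Sesn3 act on the amino acid branch. Rps6kb1 encodes S6 kinase 1, a substrate through which mTORC1 promotes translation. In adipose tissue the complex acts downstream of insulin on lipid storage.

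Of the 10 genes, Ddit4 was the one whose HuR-FKO libraries lay farthest from its Ctrl libraries. It lies on the minus strand of chr10:59949669-59951834 (GRCm38, GENCODE M21) with a coding sequence of 690 bases. The sequence just upstream is shown because Ddit4 is a strongly inducible gene whose mRNA differed most among the 10. Of the RefSeq window of 300 bases around the start (GRCm38.p6), the 186 bases before both the RefSeq and the GENCODE start are shown (chr10:59951835-59952020, minus strand). Capitals mark a match to ACGTG, one form of the core motif of hypoxia-inducible factors:
Ddit4 upstream: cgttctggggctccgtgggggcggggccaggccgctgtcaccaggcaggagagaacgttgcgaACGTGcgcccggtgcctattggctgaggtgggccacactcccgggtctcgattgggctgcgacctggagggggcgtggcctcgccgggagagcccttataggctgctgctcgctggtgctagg

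The match begins 187 bases before the RefSeq start, and 19.6% of the 32851 RefSeq promoter windows of the same length hold ACGTG on either strand. No match to AGAACA (a half-site of the glucocorticoid receptor, in 19.0% of windows), GTAAACA (FOXO factors, 3.6%), TGACGTCA (the cAMP response element, 1.8%) or CACGTG (the E-box, 7.2%, which contains ACGTG) was found in the whole Ddit4 window. RefSeq windows were at hand for 9 of the 10 genes. The only other matches were an E-box in Rheb, which also counts there as 2 ACGTG matches, ACGTG in Rptor, AGAACA in Rps6kb1 and GTAAACA in the upstream one of the Sesn1 windows. Other forms of the hypoxia-inducible factor motif were not searched. A match describes the letters of the window and shows no binding.

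HuR binds U-rich and AU-rich stretches, mostly in 3′ UTRs, so the pentamer AUUUA was counted in the 3′ UTR of each counted transcript (GENCODE M21). Ddit4, with a 3′ UTR of 867 bases, held none, and neither did Mtor or Tsc2. Among 8204 genes with a 3′ UTR, 66.4% held at least 1 and the median was 1. Their median length was 962.5 bases and their median density 1.29 matches per kb. Sesn3 held 13 in 7395 bases and Rps6kb1 held 12 in 3854 bases, the most of the 10 genes. Deptor followed with 8, Tsc1 with 4, Sesn1 with 2, and Rptor and Rheb with 1 each. Counts rise with length, and per kb Rps6kb1 had 3.11, Sesn1 1.88, Sesn3 1.76, Rheb 1.19, Deptor 1.12, Tsc1 1.0 and Rptor 0.52. A stretch with more than 1 match is shown for the 2 genes with the highest counts, written as DNA with ATTTA in capitals:
Sesn3, chr9:14328266-14328295, plus strand: attgaATTTAcgatgtagtaATTTAtagtg
Rps6kb1, chr11:86500068-86500097, minus strand: ATTTAtttgtaaaaactgaagcataATTTA

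Neither is a site that was tested for binding here. Only AUUUA was searched, so a 3′ UTR with no match can still hold U-rich or other AU-rich stretches.

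Ddit4 mRNA stood at 304.8 and 249.0 RPKM in the HuR-FKO pools, against 60.6 and 80.5 RPKM in the Ctrl pools. Both HuR-FKO libraries lay above both Ctrl libraries, and the means were 276.9 ± 39.4 RPKM in HuR-FKO and 70.6 ± 14.0 RPKM in Ctrl (SD, n = 2 each), a 3.92-fold difference. The fitted difference was 1.96 ± 0.16 (SE) on the log2(RPKM + 1) scale. The RPF levels differed more widely, at 284.3 and 221.0 RPKM in HuR-FKO, against 25.2 and 28.1 RPKM in Ctrl. The RPF means, 252.7 ± 44.8 RPKM in HuR-FKO and 26.6 ± 2.05 RPKM in Ctrl, differed 9.49-fold, a log2 difference of 3.19 ± 0.20. Behind these levels stood 257 and 81 RPF reads in HuR-FKO, against 20 and 14 reads in Ctrl. The exact Poisson 95% intervals of the HuR-FKO libraries, 250.6 to 321.3 and 175.5 to 274.7 RPKM, and of the Ctrl libraries, 15.4 to 38.9 and 15.3 to 47.1 RPKM, cover counting error only and do not meet.

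**Figure D1:**
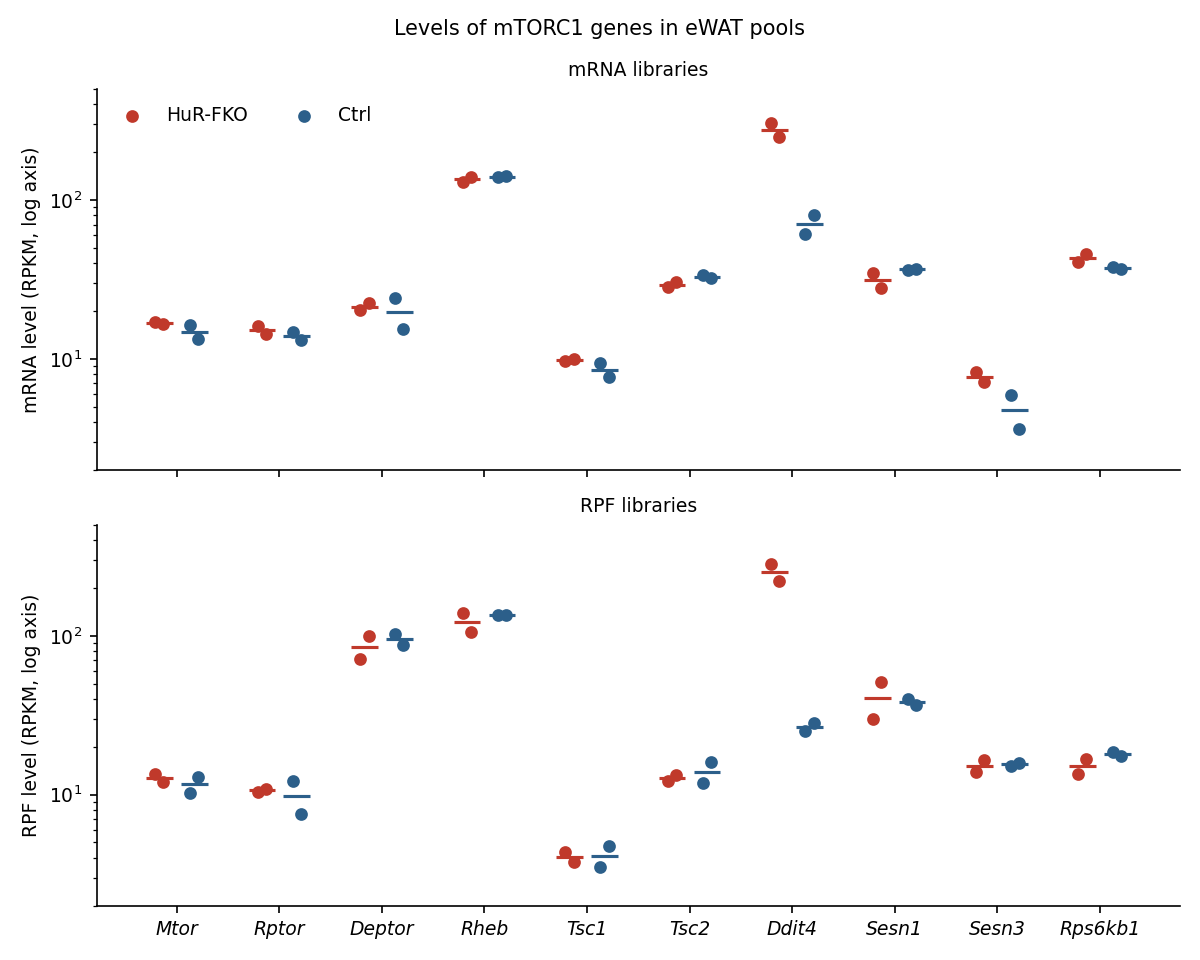
Levels of the 10 genes in each library, in RPKM on a log axis, for mRNA (upper panel) and RPF (lower panel); points are pools (HuR-FKO red and left, Ctrl blue and right) and bars are the means of 2 pools. Ddit4 is the gene whose HuR-FKO points stand far from its Ctrl points in both panels, at 249.0 to 304.8 RPKM in HuR-FKO against 60.6 to 80.5 RPKM in Ctrl for mRNA, and at 221.0 to 284.3 RPKM in HuR-FKO against 25.2 to 28.1 RPKM in Ctrl for RPF.

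Translational efficiency (TE) sets the RPF level of a gene against its mRNA level. Relative to the median gene, the log2 TE of Ddit4 was 0.24 and 0.17 in the HuR-FKO pools, against -0.97 and -1.19 in the Ctrl pools. The pools of the genotypes did not overlap, and the difference in TE was 1.23 ± 0.26 (SE). It did not pass the threshold over all genes. Ddit4 stayed past the threshold for mRNA and for RPF in every alternative run, with log2 differences of 1.76 to 2.23 for mRNA and 3.01 to 3.37 for RPF, and its TE difference ran between 1.04 and 1.35.

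Of the 10 genes, 1 passed an adjusted p of 0.05 for mRNA, where 14.0% of all genes did, and 1 passed for RPF, where 0.444% did. Both counts are Ddit4. For TE none passed, where 0.0117% of all genes did. At an unadjusted p under 0.05 the TE count was 1 of 10 in limma, beside 8.04% of all genes, and voom on the recovered reads also called 0 of 10, beside 0.0246% of all genes. Since the genes were chosen with this contrast known, nothing is read from these counts.

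A difference in the number of adipocytes and one in the RNA per adipocyte cannot be told apart in such tissue pools. The adipocyte markers summed to 71427 to 74190 RPKM in HuR-FKO mRNA and 60337 to 61774 RPKM in Ctrl mRNA. Of the 10, 2 were lower in HuR-FKO mRNA, where 6.54% of all genes were, and none was higher, where 7.50% were. The summed mRNA level of the macrophage markers was 2420 to 2661 RPKM in HuR-FKO and 2070 to 2230 RPKM in Ctrl. Some of these and of the red blood cell markers differed between genotypes in mRNA, and none passed for RPF. The part of these cell types in the Ddit4 difference was not tested. Differences in mRNA also followed transcript length across genes (Spearman rho 0.38 over 8245 genes, which are not independent). The Ddit4 transcript of 1755 bases is shorter than the median of 2981 bases, and after correction for length and G+C content its mRNA difference was 2.23.

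The core of the complex differed little. Mtor (chr4:148448611-148557683) had 17.1 and 16.7 RPKM in HuR-FKO mRNA, against 16.3 and 13.3 RPKM in Ctrl mRNA, a log2 difference of 0.19 ± 0.15. Its RPF level was 13.6 and 12.0 RPKM in HuR-FKO, against 10.3 and 13.0 RPKM in Ctrl, and the genotypes overlapped. Rptor (chr11:119603149-119899407) had 16.0 and 14.3 RPKM in HuR-FKO mRNA, against 14.7 and 13.1 RPKM in Ctrl mRNA, with overlapping pools. Its RPF level was 10.5 and 10.8 RPKM in HuR-FKO, against 12.1 and 7.58 RPKM in Ctrl, so the widest gap was between the Ctrl pools. Both subunits were among the less abundant mRNAs of the tissue, with 23.2% of genes below Mtor and 21.4% below Rptor in Ctrl.

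Deptor (chr15:55112317-55259271), the inhibitory subunit, had 20.2 and 22.4 RPKM in HuR-FKO mRNA, against 24.0 and 15.4 RPKM in Ctrl mRNA. In RPF it had 71.3 and 99.4 RPKM in HuR-FKO, against 102.3 and 87.7 RPKM in Ctrl. The genotypes overlapped in both assays, with log2 differences of 0.14 ± 0.19 for mRNA and -0.17 ± 0.21 for RPF. An antisense transcript, Gm9920, overlaps 9.9% of the Deptor coding bases and another, Rptoros, 2.1% of those of Rptor. Whether the counting used strand is not given in the sources used here, so reads of these stretches are uncertain.

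Rheb (chr5:24802823-24842624), the activating GTPase, was the most abundant of the 10 in Ctrl. Its mRNA stood at 129.2 and 140.0 RPKM in HuR-FKO, against 138.9 and 140.6 RPKM in Ctrl, and the fitted difference of -0.05 ± 0.11 was smaller than its error. Its RPF level was 139.0 and 105.2 RPKM in HuR-FKO, against 136.2 and 134.6 RPKM in Ctrl. The second HuR-FKO pool was the low one, with 31 reads.

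Tsc1 and Tsc2, which together turn Rheb off, did not pass for mRNA or RPF. Tsc1 (chr2:28641237-28691167) had 9.73 and 10.0 RPKM in HuR-FKO mRNA, against 9.42 and 7.70 RPKM in Ctrl mRNA, a log2 difference of 0.19 ± 0.16. Its RPF level of 4.38 and 3.78 RPKM in HuR-FKO, against 3.49 and 4.76 RPKM in Ctrl, rested on 20 and 7 reads in HuR-FKO and 14 and 12 in Ctrl. The RPF log2 difference of Tsc1 was -0.0040 ± 0.29, with overlapping pools. Tsc2 (chr17:24595937-24632629) had 28.2 and 30.4 RPKM in HuR-FKO mRNA, against 33.5 and 32.4 RPKM in Ctrl mRNA, a log2 difference of -0.17 ± 0.12. In RPF Tsc2 had 12.2 and 13.3 RPKM in HuR-FKO, against 11.8 and 16.1 RPKM in Ctrl, with overlapping pools.

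Sestrins inhibit mTORC1 when amino acids are scarce. Sesn1 (chr10:41887439-41908424) had 34.8 and 27.9 RPKM in HuR-FKO mRNA, against 36.5 and 36.7 RPKM in Ctrl mRNA, a log2 difference of -0.22 ± 0.14. Its RPF level was 29.9 and 50.9 RPKM in HuR-FKO, against 39.9 and 36.4 RPKM in Ctrl, so the HuR-FKO pools bracketed the Ctrl pools. Sesn3 (chr9:14276301-14333101) had 8.29 and 7.14 RPKM in HuR-FKO mRNA, against 5.95 and 3.61 RPKM in Ctrl mRNA. Both HuR-FKO pools were above both Ctrl pools, but the mRNA pools of Ddit4, Mtor, Tsc1, Tsc2, Sesn1 and Rps6kb1 did not overlap either. The log2 difference of Sesn3 was 0.62 ± 0.22 on 43 to 64 reads per library. That value depended on 1 library, being 0.92 and past the threshold without the first Ctrl pool and 0.32 without the second, and it was 0.37 after correction for length and G+C content. In RPF Sesn3 had 13.9 and 16.5 RPKM in HuR-FKO, against 15.3 and 15.9 RPKM in Ctrl, with overlapping pools. These levels rested on 27 and 13 reads in HuR-FKO and 26 and 17 in Ctrl. The RPF log2 difference was -0.03 ± 0.27, so whether RPF followed the mRNA is not resolved.

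Rps6kb1 (chr11:86498871-86544805), the S6 kinase gene, had 40.4 and 46.0 RPKM in HuR-FKO mRNA, against 37.8 and 36.6 RPKM in Ctrl mRNA. Its RPF level was 13.5 and 16.7 RPKM in HuR-FKO, against 18.7 and 17.5 RPKM in Ctrl. The pools of the genotypes did not overlap in either assay and lay in opposite order, with log2 differences of 0.21 ± 0.12 for mRNA and -0.25 ± 0.27 for RPF. The mRNA difference was 0.03 after correction for length and G+C content, and the RPF levels rested on 14 to 34 reads. Their exact Poisson 95% intervals overlapped between genotypes, at 8.99 to 19.6 and 9.12 to 28.0 RPKM in HuR-FKO and 12.9 to 26.1 and 10.7 to 27.1 RPKM in Ctrl.

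**Figure D2:**
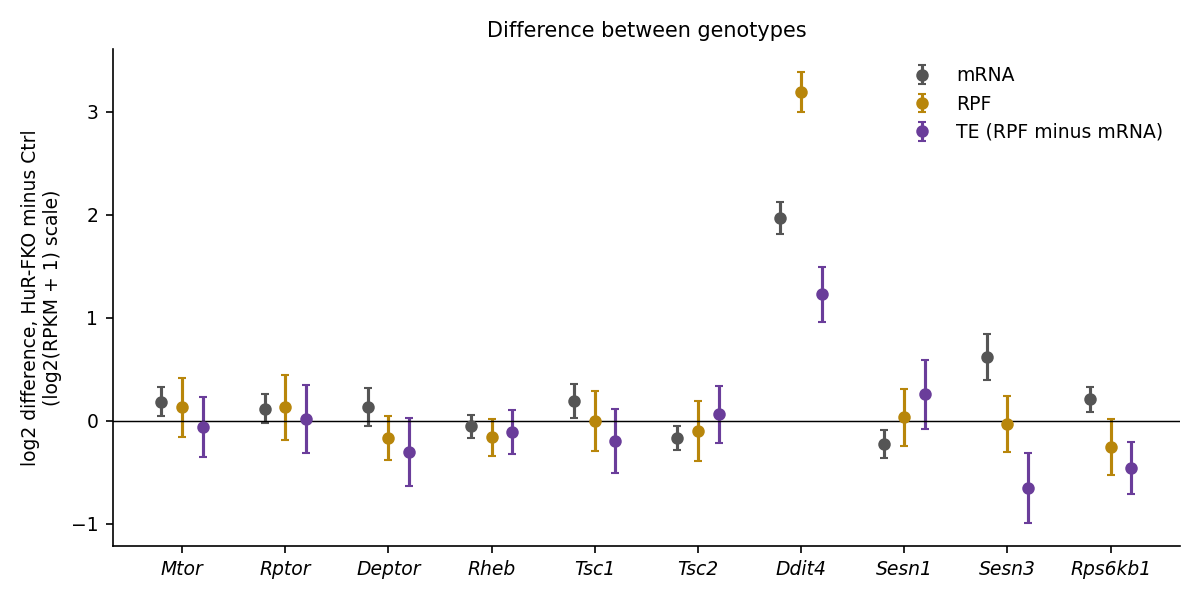
Log2 difference between HuR-FKO and Ctrl on the log2(RPKM + 1) scale for the mRNA, RPF and TE of each gene; points are fitted values and bars their standard errors, from 2 pools per genotype. Ddit4 stands at 1.96 (mRNA), 3.19 (RPF) and 1.23 (TE), and the next largest in size is the TE difference of Sesn3, -0.65.

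How strongly each mRNA was loaded with ribosomes, apart from any difference between genotypes, was tested within each genotype against the median gene. Of the 10 genes, 5 differed from the median gene in HuR-FKO and 5 in Ctrl, where 54.6% and 53.2% of all genes did, so the share was close to that of any gene. The 10 spread over more than 3 log2 units in both genotypes, and in Ctrl inhibitors stood at both ends of the order.

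Deptor was the most heavily loaded. Its log2 TE was 2.28 ± 0.20 in HuR-FKO (limma adjusted p = 0.0004) and 2.51 ± 0.23 in Ctrl (adjusted p = 0.000275), above the median gene in all 4 pools. In Ctrl 32.5% of genes lay below Deptor by mRNA level and 82.3% by RPF level. Sesn3 came next, at 1.24 ± 0.21 in HuR-FKO (adjusted p = 0.00335) and 1.82 ± 0.26 in Ctrl (adjusted p = 0.00127), again above the median in 4 of 4 pools. By mRNA it was the least abundant of the 10, with 3.8% of genes below it in Ctrl, and by RPF 36.3% of genes lay below it. Without the second HuR-FKO pool the Sesn3 value in HuR-FKO was 1.03 and no longer passed. Sesn1 was above the median in 4 of 4 pools, at 0.66 ± 0.27 in HuR-FKO and 0.33 ± 0.16 in Ctrl, without passing the test in either. Its HuR-FKO value rested on the second pool, being 1.18 and past the threshold without the first pool.

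**Figure D3:**
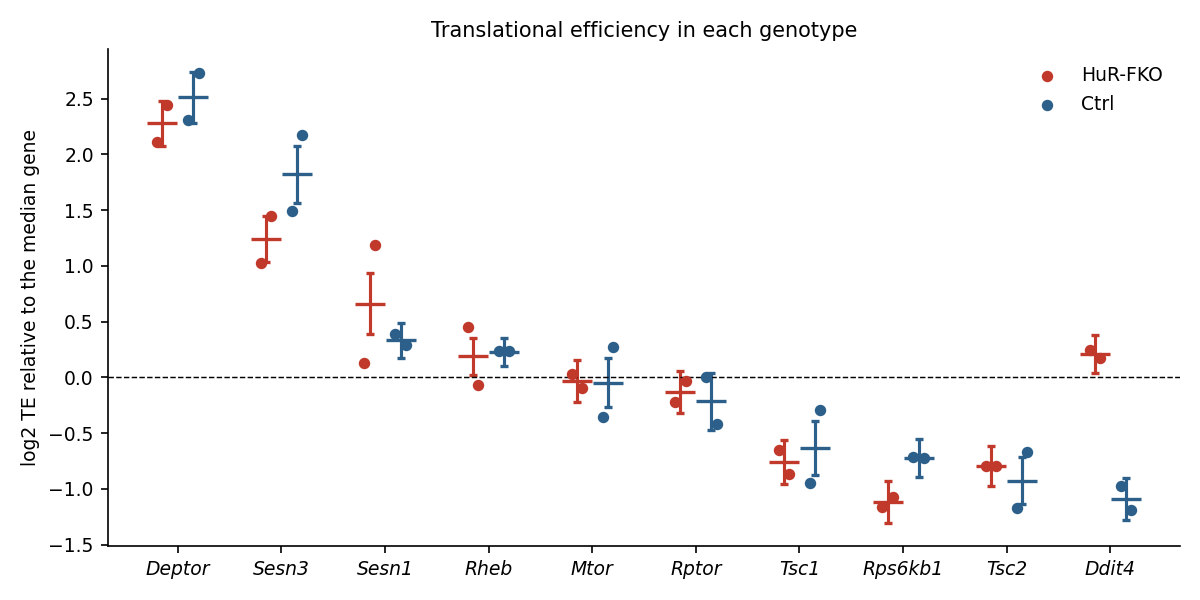
Log2 TE relative to the median gene (dashed line at 0) for each gene, in order of its Ctrl value; points are pools (HuR-FKO red and left, Ctrl blue and right), and horizontal bars with whiskers are the fitted value and its standard error. Deptor and Sesn3 lie above the median gene in all 4 pools, Tsc1, Tsc2 and Rps6kb1 below it in all 4, and Ddit4 lies above it in HuR-FKO and below it in Ctrl.

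Rps6kb1, Tsc2 and Tsc1 lay below the median gene in 4 of 4 pools. Rps6kb1 stood at -1.12 ± 0.19 in HuR-FKO (adjusted p = 0.00362) and -0.73 ± 0.17 in Ctrl (adjusted p = 0.0105). Tsc2 stood at -0.79 ± 0.18 in HuR-FKO (adjusted p = 0.0109) and -0.93 ± 0.21 in Ctrl (adjusted p = 0.00881). Tsc1 passed in HuR-FKO, at -0.76 ± 0.20 (adjusted p = 0.0187), and not in Ctrl, at -0.63 ± 0.24 (adjusted p = 0.0597), where it was -0.95 and passed without the second pool. In HuR-FKO, leaving out the first or the second pool gave -1.07 or -1.17 for Rps6kb1, -0.79 or -0.80 for Tsc2 and -0.86 or -0.65 for Tsc1. With either pool left out, Tsc1 and Tsc2 lost the HuR-FKO call and Rps6kb1 kept it. In Ctrl, Rps6kb1 was -0.72 without the first pool and -0.71 without the second, and Tsc2 was -0.67 without the first. Rps6kb1 and Tsc2 each lost the Ctrl call with a pool left out. Such a fit takes the spread between pools from the other genotype. Whether a gene passed there thus also depends on the changed model.

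Ddit4 was below the median gene in Ctrl, at -1.09 ± 0.19 (adjusted p = 0.00306), and at 0.21 ± 0.17 in HuR-FKO (adjusted p = 0.331). After correction for length and G+C content the HuR-FKO value was 0.60 and passed, and the Ctrl value was -0.50 and no longer passed. Mtor, Rptor and Rheb lay near the median gene. Mtor was at -0.03 ± 0.19 in HuR-FKO and -0.05 ± 0.22 in Ctrl, Rptor at -0.13 ± 0.19 in HuR-FKO and -0.22 ± 0.26 in Ctrl, and Rheb at 0.19 ± 0.17 in HuR-FKO and 0.23 ± 0.13 in Ctrl. In Ctrl the order from Sesn1 through Rheb and Mtor to Rptor is not resolved, since each differed from the next by less than the sum of their standard errors.

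The rest of the pathway was read from 6 lists covering subunits and assembly factors, the Rag and Ragulator arm, the GATOR and amino acid sensing arm, inputs to TSC, substrates, and TOP mRNAs, whose translation mTORC1 promotes. Of 97 genes named, 80 were in the table. The lists were also chosen with earlier results of these data known. The adjusted p-values of their genes between genotypes are therefore a description and no independent test. For mRNA 6 were higher and 3 lower in HuR-FKO and 71 did not pass, which makes 11.2% called, beside 14.0% of all genes (7.50% higher and 6.54% lower). The shares called in the separate lists rest on 0 to 3 genes each and are not read against that background. The median log2 difference was -0.0033, against 0.02 over all genes. For RPF and for TE none of the 80 passed in limma, while 10 for RPF and 11 for TE had an unadjusted p under 0.05, where 10.7% of all genes did for RPF and 8.04% for TE. Voom called 1 of 78 for RPF, Lpin1, and 0 for TE, and Eif4ebp2 passed for RPF with the replicate block. The RPF median was -0.07, against -0.05 over all genes, and the TE median was -0.13, against -0.07 over all genes. Over all genes limma called 38 for RPF and 1 for TE, 913 and 688 had an unadjusted p under 0.05, and voom called 169 for RPF and 2 for TE.

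**Figure D4:**
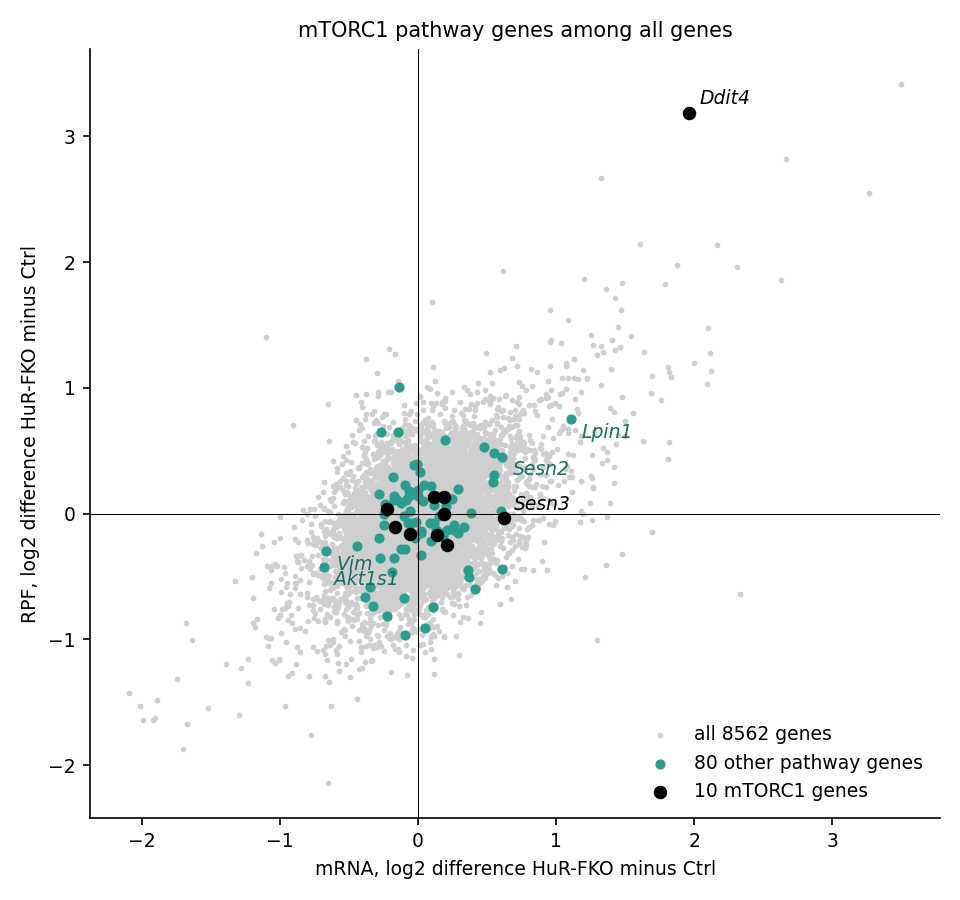
Log2 difference between HuR-FKO and Ctrl in mRNA (x axis) against that in RPF (y axis), with all 8562 genes in grey, 80 other genes of the pathway in green and the 10 mTORC1 genes in black. Ddit4 lies at 1.96 and 3.19, while the other pathway genes lie within the cloud, with Lpin1 the farthest to the right at 1.11 and 0.75.

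Among subunits and assembly factors, 1 of 7 measured genes changed. Akt1s1, which encodes the mTORC1 inhibitor PRAS40, fell to 52.3 and 50.3 RPKM in HuR-FKO mRNA, against 89.1 and 77.2 RPKM in Ctrl mRNA, a log2 difference of -0.68 ± 0.12 (adjusted p = 0.00673). Its direction was thus opposite to that of Ddit4, another inhibitor. After correction for length and G+C content the value was -0.35 and the call was lost.

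None of the 11 measured genes of the Rag and Ragulator arm passed in limma, 5 had an unadjusted p under 0.05, where 30.6% of all genes did, and voom called 2, Lamtor1 and Flcn. Its most abundant genes were the Ragulator subunits Lamtor1, at 167.4 and 170.3 RPKM in HuR-FKO mRNA, against 218.8 and 211.6 RPKM in Ctrl mRNA, and Lamtor4, at 156.9 and 130.6 RPKM in HuR-FKO mRNA, against 166.7 and 181.3 RPKM in Ctrl mRNA. The log2 difference of Lamtor1, -0.35 ± 0.11 (adjusted p = 0.0612 in limma), also passed with median ratio scaling and with the replicate block, and was -0.15 after correction for length and G+C content. In the GATOR and sensor arm 1 of 12 passed, the leucine sensor Sesn2. Sesn2 mRNA was higher, at 34.6 and 29.5 RPKM in HuR-FKO, against 22.7 and 18.7 RPKM in Ctrl, a log2 difference of 0.61 ± 0.14 (adjusted p = 0.0222).

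Of 16 measured inputs to TSC, 3 rose, and none fell. Among them were Pik3r1, a regulatory PI3K subunit, at 0.55 ± 0.15 (adjusted p = 0.0377) and Pdpk1, the kinase that activates AKT, at 0.60 ± 0.17 (adjusted p = 0.0472). After correction for length and G+C content neither passed, with Pik3r1 at 0.33 and Pdpk1 at 0.37. Both also lost the call without the second Ctrl pool (Pik3r1 at 0.33 and Pdpk1 at 0.35), and Pdpk1 lost it under both other scalings.

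Of 19 measured substrates and effectors, 1 rose and 1 fell. Lpin1, a phosphatidate phosphatase whose entry into the nucleus mTORC1 controls, rose to 198.7 and 192.6 RPKM in HuR-FKO mRNA, against 100.6 and 81.2 RPKM in Ctrl mRNA. Its log2 difference of 1.11 ± 0.13 (adjusted p = 0.000769) passed under all 14 alternatives. The RPF difference of Lpin1 was 0.75 ± 0.16 and did not pass (adjusted p = 0.114). It passed in 3 of 14 alternatives, voom, the shared fit and the correction for length and G+C content, at 0.75 to 0.77. Pdcd4, a translation repressor degraded after S6 kinase signalling, fell, with a log2 difference of -0.44 ± 0.12 (adjusted p = 0.0431), a call that was lost without the second Ctrl pool (-0.34).

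Among 16 TOP mRNAs, Eif4a2 rose by 0.54 ± 0.11 (adjusted p = 0.0131) and Vim fell by 0.67 ± 0.11 on the log2 scale (adjusted p = 0.00474). TOP mRNAs were lightly loaded with ribosomes: 11 of 16 passed the test below the median gene in HuR-FKO, where 27.3% of all genes did, and 11 of 16 in Ctrl, where 26.9% did, with median log2 TE of -0.82 in HuR-FKO and -0.97 in Ctrl. Their median TE difference was 0.23, against -0.07 over all genes, and none of the 16 passed. Of the list genes named here, Sesn2, Akt1s1, Pik3r1, Pdpk1, Pdcd4, Vim and Eif4a2 lost their mRNA call when either HuR-FKO pool was left out, when fewer genes passed in all (226 and 236 against 1202), and Lpin1 kept it. The values of those that lost it lay between 0.39 and 0.72 in size. In the shared fit over all 8 libraries Lpin1 and Vim kept their call and the other named genes lost it.

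The genes with a profile most like Ddit4 over the 8 libraries, by Euclidean distance between log2(RPKM + 1) values centred within each assay, were Mt2, Serpina3b, Cebpd, Serpina3k and Rgs2, in that order, at distances of 1.26 to 1.53, where the median over 7808 genes was 3.84. Mt2 is a metallothionein, Cebpd a C/EBP transcription factor, Serpina3b and Serpina3k are serine protease inhibitor family members, and Rgs2 a regulator of G protein signalling. For mRNA their log2 differences ran between 1.61 (Cebpd) and 2.66 (Serpina3b), beside 1.96 for Ddit4. For RPF they ran between 1.96 (Rgs2) and 2.82 (Serpina3b), all below the 3.19 of Ddit4. Their TE differences, -0.34 to 0.54, were also below that of Ddit4. As these genes were selected by likeness to Ddit4, their differences are a description.

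**Figure D5:**
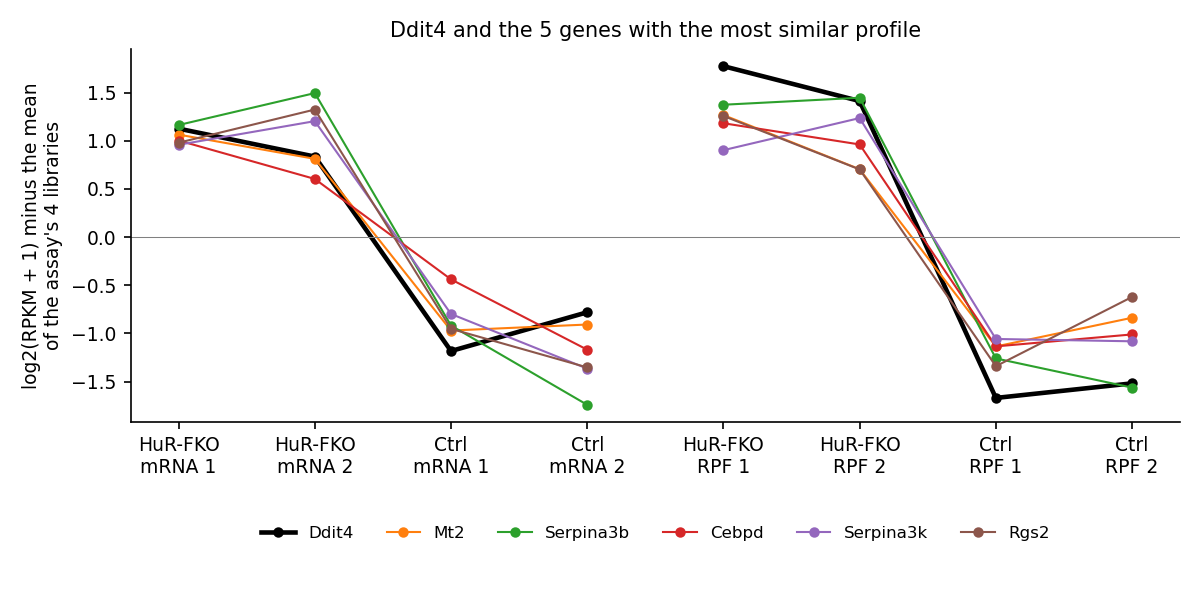
Log2(RPKM + 1) of Ddit4 (thick black line) and the 5 genes nearest to it in each of the 8 libraries, after subtracting the mean of the 4 libraries of the same assay. All 6 genes are above 0 in each HuR-FKO library and below 0 in each Ctrl library, and Ddit4 has the widest gap in RPF.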

How the data were processed

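eWAT of 3 mice per pool, 2 pools per genotype, gave 4 mRNA and 4 RPF libraries. The authors deposited RPKM values per gene and library. The submitters' processing notes name cutadapt 1.8.3, TopHat2 2.0.9 and Bowtie 1.0.0, while no source used here gives the genome build, the counting program or the use of strand. The table also holds 4 columns of the authors' means and 5 of their ratios, which were not used. A tag naming an HuR antibody stands on the RPF samples, though ribosome profiling uses none.

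With GENCODE M21 coding lengths (96.3% of genes), 98.4% of those genes gave whole reads in all 8 libraries (tolerance 0.001), so RPKM is scaled to the length of the coding sequence and the coding reads of the library. Median reads per gene were 248 to 369 for mRNA and 17 to 40 for RPF.

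Values were fitted as log2(RPKM + 1) with limma 3.58.1 (R 4.3.3, eBayes with trend, two-sided, Benjamini-Hochberg over all 8562 genes, threshold 0.05). The pseudocount of 1 RPKM understates changes of low genes. TE was RPF against mRNA of a genotype, relative to the median gene, and its difference the interaction. With a pool left out, TE within a genotype was fitted over all libraries left. The scripts were run on simulated counts drawn independently for each library, without the pairing by pool or the length trend of these data. That run checks the code and not the error rates in these libraries. The p-values rest on 2 pools per group and measure only the spread between pools. The mRNA and RPF libraries of 1 pool are shares of the same tissue, so the pool pairs them by design, while the correlation of their deviations from group means was 0.05 in HuR-FKO and 0.05 in Ctrl. The main TE fits, with their errors and p-values, left this pairing out, and only the replicate block used it. The numbers of HuR-FKO and Ctrl pools are only names.

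Text names the 10 genes, Elavl1, list genes past the threshold (at most 4 per list and contrast, otherwise the 2 most abundant), the 5 genes nearest to Ddit4 (mean of at least 5 RPKM in each assay) and at most 2 markers per cell type. The values of 1 list gene past the threshold are not reported here. The genes and lists were chosen with earlier results of these data known. The alternatives took 0.1 RPKM as pseudocount, left the filter out or set it at 5 RPKM, and used 2 scalings (median ratio, quantile), eBayes without trend, voom on recovered reads, a correction for length and G+C content (a spline trend taken out of each library), a replicate block, a shared fit over all libraries, and leaving out each pool. Every listed gene passes the main filter, so the run without it repeats the main fit and adds no support.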

Additional observations from a re-analysis of the deposited data

How the results depend on the processing

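With 2 pools per genotype, an RPF library median of 17 to 40 reads per gene, and genes at or under 1 RPKM not listed, counts of genes past the threshold moved widely with the fit, while Ddit4 passed for mRNA and RPF under every alternative. For mRNA 1202 of all genes passed (642 higher and 560 lower). The replicate block gave 2156, the shared fit 254, and leaving out 1 pool 226 to 1642. Of the 10 genes 1 passed, 2 with the replicate block (Ddit4 and Sesn3), and 1 to 2 with a pool left out. For RPF 38 passed (28 higher and 10 lower). This became 4 for eBayes without trend, 169 for voom, 88 after correction for length and G+C content (52 higher and 36 lower), 140 with the replicate block, 202 in the shared fit, and 15 to 107 with a pool left out. For the TE difference 1 passed, 2 with voom, and 0 with any pool left out. For TE within a genotype, leaving out a pool gave 3314 to 3412 genes in HuR-FKO (4676 with both) and 2946 to 3041 in Ctrl (4559 with both), with 2 to 4 of the 10 genes in HuR-FKO and 3 to 5 in Ctrl. The sample numbers of the genotypes share only a number (correlation of deviations 0.15 for mRNA and -0.0048 for RPF), and the replicate block by pool changed no call of the 10 genes for TE (5 in HuR-FKO and 5 in Ctrl). The direction of TE relative to the median gene turned for genes near it. After correction for length and G+C content, Mtor was 0.24 in HuR-FKO and 0.083 in Ctrl, Rptor 0.22 in HuR-FKO and 0.023 in Ctrl, and Rheb -0.19 in HuR-FKO and -0.13 in Ctrl. With quantile normalization Mtor was 0.0071 in HuR-FKO. With a pool left out, Mtor ran between -0.098 and 0.028 in HuR-FKO and between -0.35 and 0.27 in Ctrl, Rptor between -0.42 and 0.0065 in Ctrl, and Rheb between -0.069 and 0.45 in HuR-FKO. The cause of these shifts was not tested.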
